A study of Mus musculus with 8 samples.

Results

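The genes described here are 10 immediate-early transcription factor genes of the AP-1, EGR and NR4A families: Fos, Fosb, Fosl2, Jun, Junb, Jund, Atf3, Egr1, Nr4a1 and Nr4a2. They were taken by symbol, and each matched 1 of the 49315 Ensembl gene identifiers in the count tables. Their transcripts were counted by RNA sequencing in neutrophils that casein, a milk protein, had drawn into the peritoneal cavity of mice. All animals were C57BL/6, an inbred strain, and 2 months old. The elicited cells were divided by density, low or high, and the mice were H2R deficient or wildtype for H2R, the histamine H2 receptor. The 4 groups were H2R-deficient low-density (libraries 1 and 2), H2R-deficient high-density (libraries 1 and 2), wild-type low-density (libraries 2 and 4) and wild-type high-density (libraries 2 and 4) neutrophils. The sources used here do not state how the receptor was removed, in which cells, how the densities were separated or whether animals were pooled. Separate animals are not documented for the libraries of a group either, so every p-value refers to the spread between these libraries, part or all of which may be technical.

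Immediate-early genes are transcribed within minutes of a stimulus, without new protein synthesis, when MAP kinases or cyclic AMP activate factors that already sit on their promoters, and their transcripts are short-lived. FOS proteins pair with JUN proteins to form AP-1, which binds DNA through basic leucine zippers, while EGR1 is a zinc finger activator and NR4A1 and NR4A2 are nuclear receptors whose activity follows their abundance. In neutrophils and other leukocytes these transcripts respond to adhesion, chemoattractants, microbial products and cell handling, and the H2 receptor couples to Gs and raises cyclic AMP.

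Promoter sequence is shown because cyclic AMP is known to act on several of these genes through CREB, which binds the palindrome TGACGTCA or its core TGACG. RefSeq promoter entries (GRCm38.p6) were found for 9 of the 10 genes, and the 250 bases before the annotated start were searched on both strands. For Fosl2, Jund and Atf3 the RefSeq start lies away from the outer end of the gene in the count tables, so the window belongs to another start. The core was present in 6 of 9 genes (Fos, Fosb, Junb, Nr4a1, Nr4a2 and Atf3), against 17.8% of all 32851 promoter windows of that length. The full palindrome, which contains the core, was in 0 of the 9 and in 1.55% of all windows. The AP-1 site TGANTCA (6.75% of all windows), the EGR site GCGTGGGCG (0.536%), the NR4A site AAAGGTCA (1.34%) and the CArG box, the site of serum response factor (1.47%), were also in 0 of the 9. Bases further upstream and the promoter of Egr1 were not searched, so a lack of sites holds for these windows only. A match is a stretch of letters, and its use in these cells was not measured. The windows of the 3 genes called lower at low density in both genotypes after TMM scaling and of Jun, called in H2R-deficient cells alone, are given 5′ to 3′ with TGACG or its reverse complement CGTCA in capitals.
Fos promoter, chr12:85473640-85473889, plus strand: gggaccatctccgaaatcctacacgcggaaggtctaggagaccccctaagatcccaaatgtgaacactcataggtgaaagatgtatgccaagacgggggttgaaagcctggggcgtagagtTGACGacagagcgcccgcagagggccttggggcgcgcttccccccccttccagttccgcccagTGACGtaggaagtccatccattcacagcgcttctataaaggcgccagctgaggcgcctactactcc
Nr4a1 promoter, chr15:101266596-101266845, plus strand: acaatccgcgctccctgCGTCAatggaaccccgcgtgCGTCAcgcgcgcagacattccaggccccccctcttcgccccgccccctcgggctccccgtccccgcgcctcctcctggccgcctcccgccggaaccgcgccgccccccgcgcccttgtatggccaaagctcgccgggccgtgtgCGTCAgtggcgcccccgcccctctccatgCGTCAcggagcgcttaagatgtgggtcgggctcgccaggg
Junb promoter, chr8:84978749-84978998, minus strand: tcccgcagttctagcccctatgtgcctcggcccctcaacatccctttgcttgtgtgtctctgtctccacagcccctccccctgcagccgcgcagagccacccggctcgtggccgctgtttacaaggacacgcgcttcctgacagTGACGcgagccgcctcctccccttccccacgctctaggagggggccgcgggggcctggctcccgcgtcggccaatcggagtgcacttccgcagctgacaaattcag
Jun promoter, chr4:95052223-95052472, minus strand: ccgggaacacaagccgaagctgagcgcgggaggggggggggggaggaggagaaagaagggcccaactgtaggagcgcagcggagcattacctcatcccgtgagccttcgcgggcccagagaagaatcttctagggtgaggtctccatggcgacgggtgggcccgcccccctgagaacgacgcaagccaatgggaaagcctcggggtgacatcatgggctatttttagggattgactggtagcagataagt
The Fos window holds the core with its first base 129 and 66 bases before the start, and Junb holds 1 at 106 bases. Nr4a1 holds 4, all as CGTCA, at 233, 213, 69 and 40 bases before the start. None was found in the Jun, Jund or Fosl2 windows. Fosl2 and Egr1 were, like Jun, called in H2R-deficient cells alone after TMM scaling, and no window is printed for them. Of the other genes that hold the core, Fosb and Nr4a2 were called between densities in neither genotype and Atf3 in wild-type cells alone. Whether the core bears on the density difference was not tested.

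Libraries held 19862716 to 24199215 counts assigned to genes, and a count of 0 would allow up to 0.124 to 0.151 CPM (counts divided by the library total and scaled to 1 common size) at that depth, taking 3 counts as the floor and counting error only. All 10 genes passed the filter on low counts, and the least abundant, Nr4a2, had 17 to 214 counts. The first principal component carried 67.0% of the variance and separated the densities. TMM scaling factors, which correct library size for differences in composition, were 1.11 to 1.49 in low-density and 0.742 to 0.808 in high-density libraries. All 20 neutrophil markers were detected in every library. Their summed level in TMM-scaled CPM was 28357 to 39408 in H2R-deficient low-density libraries, against 97899 to 102170.2 in H2R-deficient high-density libraries, and 45332 to 62985 in wild-type low-density, against 91258 to 97341 in wild-type high-density libraries. B cell markers summed to 738 to 942 CPM in H2R-deficient low-density, 44.7 to 66.0 in H2R-deficient high-density, 189 to 413 in wild-type low-density and 52.5 to 59.3 in wild-type high-density libraries, and all 8 were detected in each library. Dendritic cell markers summed to 478 to 705 CPM in H2R-deficient low-density, 10.1 to 15.6 in H2R-deficient high-density, 212 to 456 in wild-type low-density and 8.66 to 31.9 in wild-type high-density libraries. Erythroid markers summed to 0.111 to 0.424 CPM in H2R-deficient low-density, with 3 of 6 at 0 in each library, 29.1 to 65.5 in H2R-deficient high-density, 0.486 to 1.49 in wild-type low-density and 62.8 to 226 in wild-type high-density libraries. Eosinophil markers summed to 29.0 to 36.3 CPM in H2R-deficient low-density, 34.7 to 41.0 in H2R-deficient high-density, 44.1 to 54.3 in wild-type low-density and 104 to 120.4 in wild-type high-density libraries. The receptor gene Hrh2 had 435 and 215 counts in H2R-deficient low-density, 599 and 275 in H2R-deficient high-density, 556 and 830 in wild-type low-density and 2003 and 700 in wild-type high-density libraries. Hrh2 was not called between genotypes (log2 fold change -1.60 ± 0.55 at high and -1.48 ± 0.55 at low density, SE, edgeR adjusted p = 0.192 and 0.196). How the receptor was removed is not stated, and whether the reads in H2R-deficient libraries come from an intact or an altered transcript was not tested.

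The density comparison asked how low-density differed from high-density cells within a genotype. After TMM scaling, in H2R-deficient libraries 6 of 10 were called lower and 0 higher: Fos, Fosl2, Jun, Junb, Egr1 and Nr4a1. In wild-type libraries 4 of 10 were called lower and 0 higher: Fos, Junb, Nr4a1 and Atf3. Called means an adjusted p under 0.05 in edgeR's quasi-likelihood test with Benjamini-Hochberg adjustment over all 14909 genes tested. Of all genes 23.9% were called lower, 30.0% higher and 54.0% either way in H2R-deficient libraries, and 4.15% were called lower, 8.51% higher and 12.7% either way in wild-type libraries. The median log2 fold change of the 10 genes was -0.90 in H2R-deficient and -1.46 in wild-type libraries, while the median of all genes was 0.10 in both. The medians of all genes moved with the scaling. They were 1.0 in H2R-deficient and 0.67 in wild-type libraries when only total counts were used, and 1.61 in H2R-deficient and 0.82 in wild-type libraries when libraries were scaled on the neutrophil markers. Directions between densities are therefore given after TMM scaling unless another scaling is named, and turns of sign under the other scalings are given beside them. The 2 densities did not overlap in TMM-scaled CPM for 8 of the 10 genes in each genotype, against 81.1% of all genes in H2R-deficient and 62.1% in wild-type libraries. In bulk RNA, fewer cells of a type and less RNA per cell cannot be told apart, and the part that the other cell types above play in the values below was not tested.

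**Figure D1:**
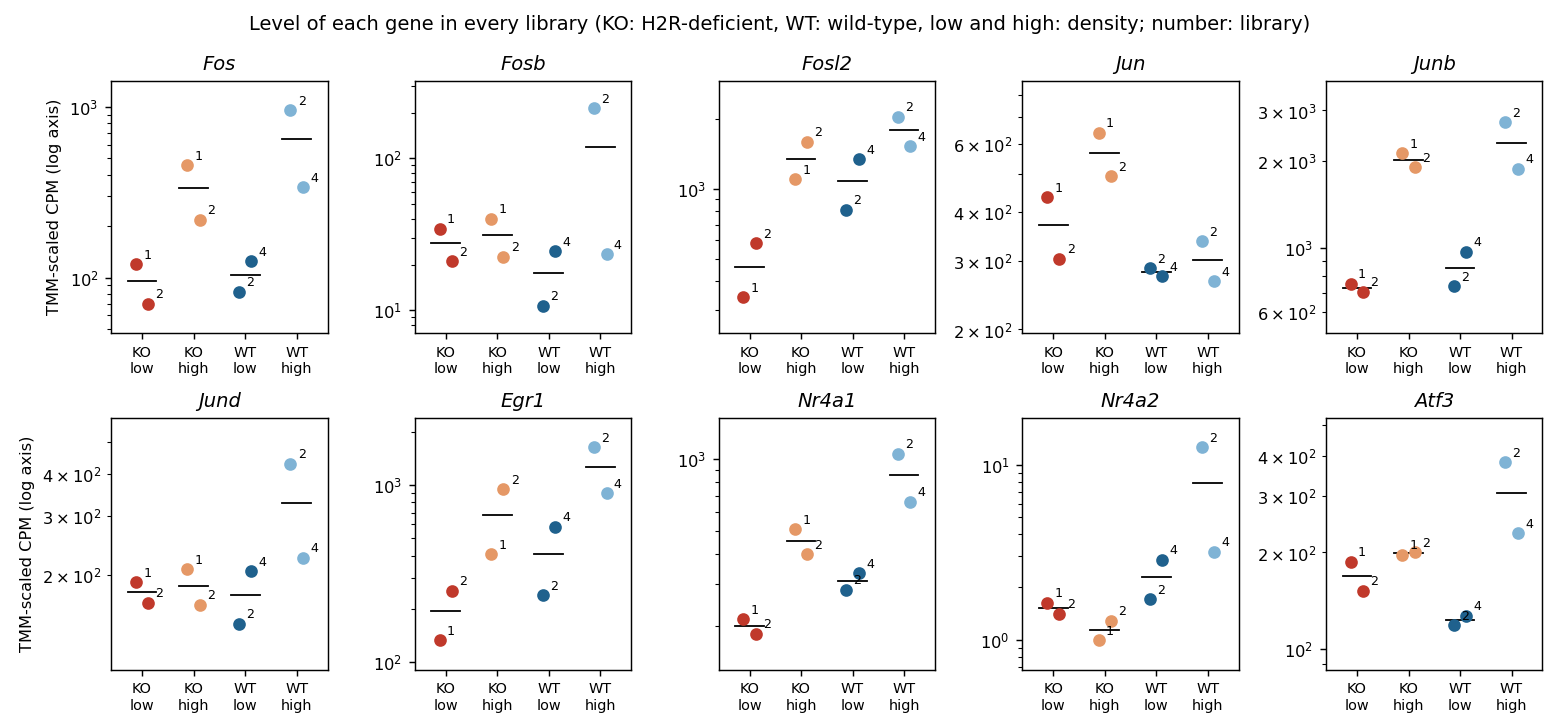
Level of each of the 10 genes in TMM-scaled CPM (log axis) in every library, grouped as H2R-deficient (KO) low and high density and wild-type (WT) low and high density. Points are libraries with their label number and bars are group means of 2. Fos, Junb and Nr4a1 lie lower in the low-density than in the high-density points of each genotype on this scale, and wild-type high-density library 2 is the highest point in 9 panels, all but that of Jun.

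Fos encodes the short-lived AP-1 partner c-FOS. In H2R-deficient cells its level was 120.1 and 70.1 CPM at low density (libraries 1 and 2), against 456 and 218 CPM at high density. In wild-type cells it was 82.5 and 125 CPM at low density (libraries 2 and 4), against 957 and 339.5 CPM at high density. All 4 low-density libraries lay below all 4 high-density libraries. Fos fell by 3.54-fold in H2R-deficient cells (log2 fold change -1.83 ± 0.58, SE, edgeR adjusted p = 0.0313) and by 6.24-fold in wild-type cells (-2.64 ± 0.59, edgeR adjusted p = 0.0341). The sign was negative in both genotypes under all 16 alternatives, but the call was lost under several. In wild-type cells Fos was not called without high-density library 2 (-1.71), low-density library 2 (-2.37), low-density library 4 (-2.99) or either H2R-deficient low-density library (-2.64 each). In H2R-deficient cells it was not called without high-density library 1 (-1.19), low-density library 1 (-2.26) or low-density library 2 (-1.49). With neutrophil-marker scaling it was -0.27 in H2R-deficient and -1.95 in wild-type cells, and with no low-count filter -1.72 in H2R-deficient and -2.60 in wild-type cells, called in neither. It was also not called with total counts only in H2R-deficient cells (-0.91), nor by limma-voom (-2.49) or with only the groups compared (-2.64) in wild-type cells.

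Fosb, the gene of an activating FOS relative, was at 34.4 and 21.1 CPM in H2R-deficient low-density, 40.1 and 22.5 in H2R-deficient high-density, 10.7 and 24.6 in wild-type low-density and 214 and 23.4 in wild-type high-density libraries. Library 2 alone set the wild-type high-density group apart, with 9.17 times the level of library 4, where the median ratio over genes in that group was 1.21 and the 95th percentile 1.94. Neither change was called (H2R-deficient -0.17 ± 0.97, edgeR adjusted p = 0.890, and wild-type -2.75 ± 1.02, adjusted p = 0.122), and the wild-type value was -0.40 without that library and -3.60, called lower, without library 4. The H2R-deficient sign turned to 0.74 with total counts only and to 1.38 with neutrophil-marker scaling.

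Fosl2 encodes FRA-2, a FOS relative that lacks a strong activation domain and is longer-lived. Levels were 341 and 583 CPM in H2R-deficient low-density, against 1098 and 1595 CPM in H2R-deficient high-density libraries. They were 813 and 1343 CPM in wild-type low-density, against 2043 and 1524 CPM in wild-type high-density libraries. The groups did not overlap in either genotype. Fosl2 fell in H2R-deficient cells (-1.54 ± 0.35, a 2.91-fold lower level, edgeR adjusted p = 0.00550) and was called whichever single library was left out (-1.98 to -1.20), but was -0.65 with total counts only and -0.07 with neutrophil-marker scaling and not called under either. In wild-type cells it was -0.73 ± 0.34 and not called (edgeR adjusted p = 0.169), though it was called lower with no low-count filter (-0.68).

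Among JUN genes after TMM scaling, Junb was called lower at low density in both genotypes, Jun in H2R-deficient cells and Jund in neither. Junb encodes an immediate-early JUN protein that can pair with FOS proteins and restrain c-JUN. Its level was 753 and 707 CPM in H2R-deficient low-density, against 2138 and 1906 CPM in H2R-deficient high-density libraries. It was 737 and 973 CPM in wild-type low-density, against 2728 and 1886 CPM in wild-type high-density libraries. Every low-density library lay below every high-density library, whichever the genotype. Junb fell by 2.77-fold in H2R-deficient cells (-1.47 ± 0.23, edgeR adjusted p = 0.00107) and by 2.70-fold in wild-type cells (-1.43 ± 0.23, edgeR adjusted p = 0.0111). In H2R-deficient cells it was called lower whichever library was left out (-1.55 to -1.38) and with total counts only (-0.56), but with neutrophil-marker scaling it stood at 0.05 and was not called. In wild-type cells it was called lower under both other scalings (-0.87 with total counts only, -0.73 with neutrophil-marker scaling). There it was not called without high-density library 2 (-1.14) or low-density library 2 (-1.24). Its transcript shares 173 exonic bases with Prdx2 on the other strand, which had 99 to 787 counts against at least 18183 for Junb.

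Jun, which encodes c-JUN, stood at 437 and 304 CPM in H2R-deficient low-density, 639 and 494 in H2R-deficient high-density, 287 and 274 in wild-type low-density and 337 and 266 in wild-type high-density libraries. The 2 densities overlapped in wild-type cells (-0.11 ± 0.23, 95% interval -0.62 to 0.41, edgeR adjusted p = 0.773). In H2R-deficient cells Jun was called lower (-0.61 ± 0.23, edgeR adjusted p = 0.0477), but the sign turned with the scaling, to 0.30 (not called) with total counts only and to 0.94 (called higher) with neutrophil-marker scaling. It was not called without H2R-deficient high-density library 1 (-0.41), H2R-deficient low-density library 2 (-0.37) or wild-type low-density library 2 (-0.61) or 4 (-0.58), nor with no low-count filter (-0.51) or only the groups compared (-0.49). An antisense gene, Junos, shares 232 exonic bases with Jun and had 114 to 227 counts.

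Jund, the gene of a JUN protein found in most resting cells, was at 190.3 and 165 CPM in H2R-deficient low-density, 208 and 163 in H2R-deficient high-density, 143 and 205 in wild-type low-density and 429 and 225 in wild-type high-density libraries. Jund was not called in H2R-deficient (-0.06 ± 0.31, edgeR adjusted p = 0.878) or wild-type cells (-0.91 ± 0.31, edgeR adjusted p = 0.0775). Without wild-type high-density library 2 the wild-type value was -0.37, while it was called lower with no low-count filter (-0.87), by DESeq2 (-0.99) and without high-density library 4 (-1.30). In H2R-deficient cells Jund was called higher at low density with total counts only (0.85) and with neutrophil-marker scaling (1.47).

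Atf3, a stress-induced leucine zipper factor that mostly represses, was called between densities in wild-type cells and not in H2R-deficient cells, and the difference between these effects was not called. H2R-deficient libraries held 187 and 152 CPM at low density, against 197 and 200.1 CPM at high density. Wild-type libraries held 119 and 127 CPM at low density, against 381 and 229.8 CPM at high density. Wild-type low-density cells had the lowest levels and wild-type high-density cells the highest, with both H2R-deficient groups in between. Atf3 fell by 2.49-fold in wild-type cells (-1.31 ± 0.24, edgeR adjusted p = 0.0159) and was -0.23 ± 0.24 in H2R-deficient cells (95% interval -0.77 to 0.31, edgeR adjusted p = 0.433). The wild-type call was lost without high-density library 2 (-0.90), low-density library 2 (-1.27) or low-density library 4 (-1.37), and with neutrophil-marker scaling (-0.59). In H2R-deficient cells Atf3 was called higher at low density with total counts only (0.68) and with neutrophil-marker scaling (1.31).

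Egr1 encodes a zinc finger activator that follows MAP kinase signalling. It stood at 133 and 253 CPM in H2R-deficient low-density, against 407 and 947 CPM in H2R-deficient high-density libraries. Wild-type libraries held 238 and 582 CPM at low density, against 1636 and 901 CPM at high density. The densities did not overlap within a genotype, though libraries of a group differed by 1.81 to 2.44 times. Egr1 fell in H2R-deficient cells (-1.81 ± 0.60, a 3.51-fold lower level, edgeR adjusted p = 0.0378), and the wild-type value of -1.63 ± 0.60 was not called (edgeR adjusted p = 0.109) except with the library number as a block (-1.70). The H2R-deficient call was lost without high-density library 2 (-1.08), low-density library 1 (-1.41), low-density library 2 (-2.34) or wild-type high-density library 2 (-1.80). With total counts only the H2R-deficient value was -0.92, with neutrophil-marker scaling -0.34, with no low-count filter -1.71 and by limma-voom -1.76, called under none of the 4.

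Nr4a1 encodes NUR77, a nuclear receptor induced by cyclic AMP and MAP kinase signals. Its level was 213 and 185 CPM in H2R-deficient low-density, against 508 and 398 CPM in H2R-deficient high-density libraries. It was 283 and 332 CPM in wild-type low-density, against 1051 and 663 CPM in wild-type high-density libraries. None of the 4 groups overlapped another. Nr4a1 fell by 2.28-fold in H2R-deficient cells (-1.19 ± 0.25, edgeR adjusted p = 0.00364) and by 2.79-fold in wild-type cells (-1.48 ± 0.25, edgeR adjusted p = 0.0122). In H2R-deficient cells it was called whichever library was left out (-1.35 to -0.99) but not with total counts only (-0.28), and its sign turned to 0.34 with neutrophil-marker scaling. In wild-type cells it was called lower under both other scalings (-0.91 and -0.76), and not without high-density library 2 (-1.11) or low-density library 2 (-1.37).

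Nr4a2 encodes the related receptor NURR1 and was close to silent in most libraries. It had 59 and 40 counts in H2R-deficient low-density libraries (1.63 and 1.41 CPM), 17 and 20 in H2R-deficient high-density (0.993 and 1.28 CPM), 42 and 73 in wild-type low-density (1.70 and 2.86 CPM) and 214 and 54 in wild-type high-density libraries (12.6 and 3.19 CPM). Wild-type high-density library 2 stood apart with 3.96 times the level of library 4. Neither density difference was called (H2R-deficient 0.43 ± 0.62, edgeR adjusted p = 0.580, and wild-type -1.79 ± 0.57, adjusted p = 0.0679), and the wild-type value was -0.48 without that library. In wild-type cells it was called lower under 3 of 16 alternatives, with no low-count filter (-1.75), by DESeq2 (-1.89) and without high-density library 4 (-2.47). With neutrophil-marker scaling Nr4a2 was called higher at low density in H2R-deficient cells (1.96).

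The number of wild-type calls moved with the wild-type library left out, which leaves its group with 1 library. Library 2 of the wild-type high-density group was the highest of all 8 for each of the 10 genes except Jun. Without it 0 of 10 genes were called, without low-density library 2 also 0, without low-density library 4 it was 2 and without high-density library 4 it was 7, each by edgeR at an adjusted p under 0.05. Calls over all genes moved as well, to 0.774% when high-density library 2 was left out, 1.41% for low-density library 2, 5.17% for low-density library 4 and 10.8% for high-density library 4, against 12.7% with all libraries. In H2R-deficient cells the count was 3 without low-density library 2 and 4 to 6 without any other library. Of all genes, 39.2% were called there without low-density library 2 and 34.5% to 52.4% without any other library, against 54.0% with all libraries.

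**Figure D2:**
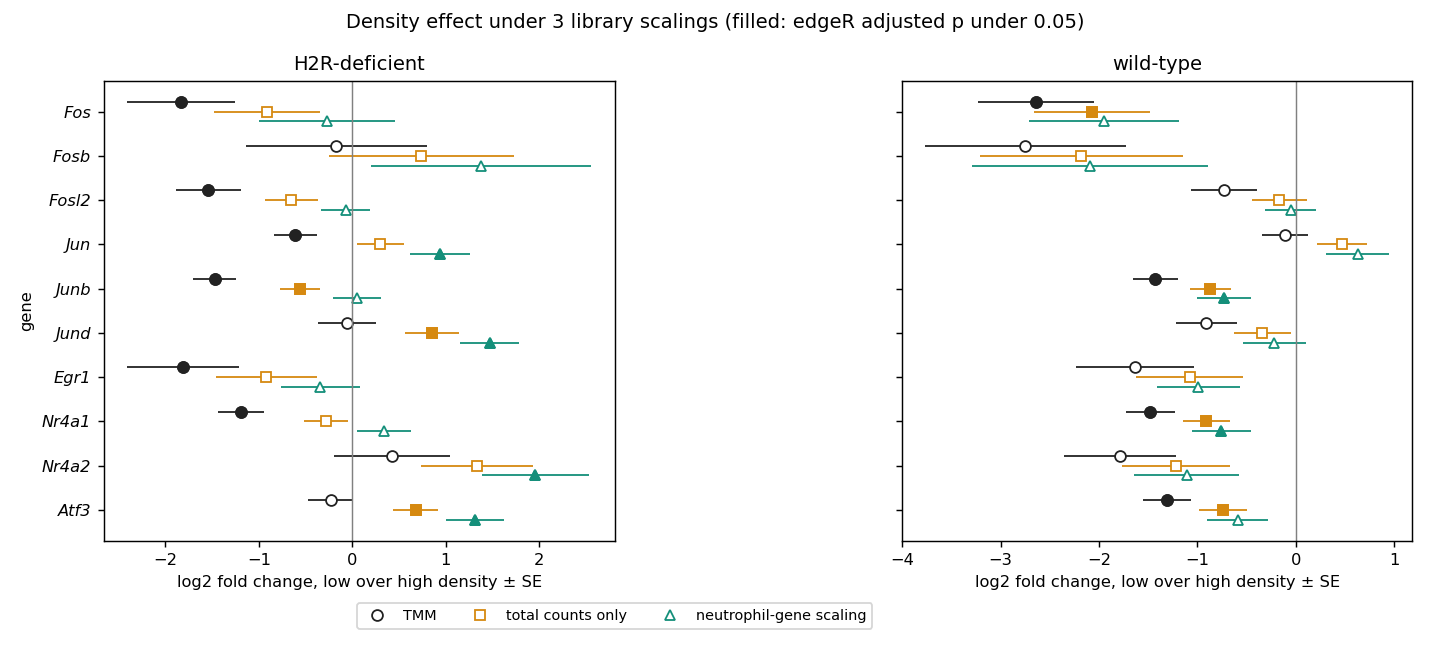
Log2 fold change of low over high density with its standard error for the 10 genes, in H2R-deficient (left) and wild-type cells (right), with libraries scaled by TMM, by total counts or by the neutrophil markers. Filled symbols passed edgeR's adjusted p threshold of 0.05. Junb and Nr4a1 are filled on the lower side in wild-type cells under all 3 scalings, while in H2R-deficient cells Atf3 and Jund move from open symbols below 0 to filled symbols above 0.

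Scaling on the neutrophil markers sets the median log ratio of those 20 genes to 0 in each library, so a value then compares a gene with neutrophil transcripts. On that scale 4 of the 10 genes were called in H2R-deficient cells, all higher at low density: Jun, Jund, Nr4a2 and Atf3. That share lies below the 68.7% of all genes called higher there, and of the 4 genes Nr4a2 alone (1.96) exceeded the median of all genes, 1.61. In wild-type cells 2 were called, both lower, Junb and Nr4a1, where 0.590% of all genes were called lower and 32.5% higher. With total counts only, 2 were called higher (Jund and Atf3) and 1 lower (Junb) in H2R-deficient cells, and in wild-type cells the 4 called after TMM scaling were called lower again. Of all genes, total counts called 51.6% higher and 2.60% lower in H2R-deficient cells, and 32.3% higher and 0.832% lower in wild-type cells. Levels in CPM on the neutrophil-marker scale are given next. Junb was at 1678 and 1126 in H2R-deficient low-density, against 1506 and 1198 in H2R-deficient high-density libraries, and at 975 and 963 in wild-type low-density, against 1885 and 1329 in wild-type high-density libraries. Atf3 was at 416 and 241 in H2R-deficient low-density, against 138 and 126 in H2R-deficient high-density libraries, and at 157 and 126 in wild-type low-density, against 264 and 162 in wild-type high-density libraries. On this scale the densities overlapped for Junb in H2R-deficient cells and did not overlap for Atf3 in either genotype.

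The genotype comparison asked how H2R-deficient differed from wild-type neutrophils of the same density, and none of the 10 genes was called at either density. At high density 0.208% of all genes were called (0.0201% higher and 0.188% lower), and at low density 0%. At an unadjusted p under 0.05 there were 2788 genes at high and 3128 at low density, and 5 and 2 of the 10 were among them. At high density those were Nr4a2 (log2 fold change -2.80 ± 0.62, edgeR adjusted p = 0.0971), Jun (0.91 ± 0.23, adjusted p = 0.109), Nr4a1 (-0.92 ± 0.25, adjusted p = 0.121), Jund (-0.82 ± 0.31, adjusted p = 0.208) and Atf3 (-0.62 ± 0.24, adjusted p = 0.215), all from edgeR. The high-density libraries of the 2 genotypes did not overlap for 5 of the 10 genes, against 46.9% of all genes. They are the same 5, and since they were picked by p in this comparison, their lack of overlap adds nothing to it. Jun was at 639 and 494 CPM in H2R-deficient, against 337 and 266 CPM in wild-type cells. Fos (-0.94 ± 0.56), Fosb (-1.93 ± 0.99), Fosl2 (-0.41 ± 0.34), Junb (-0.19 ± 0.23) and Egr1 (-0.91 ± 0.59) overlapped between genotypes at high density. Without wild-type high-density library 2 the values of Fos, Fosb and Junb were -0.01, 0.42 and 0.10, and those of Nr4a2, Nr4a1, Atf3 and Jund were -1.49, -0.55, -0.21 and -0.28. Without library 4 of that group Nr4a2 was called lower (-3.48). That library also had 2003 counts of Hrh2 and library 4 had 700, and whether this bears on the values was not tested.

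At low density Fosl2 was at 341 and 583 CPM in H2R-deficient and at 813 and 1343 CPM in wild-type libraries (-1.22 ± 0.34, edgeR adjusted p = 0.118). Nr4a1 was at 213 and 185 CPM in H2R-deficient and at 283 and 332 CPM in wild-type libraries (-0.63 ± 0.25, edgeR adjusted p = 0.196). For both the H2R-deficient libraries lay below the wild-type ones, and neither was called. Atf3 (0.46 ± 0.24), Jun (0.40 ± 0.23) and Nr4a2 (-0.58 ± 0.58) did not overlap between genotypes either, whereas Fos (-0.13 ± 0.56), Fosb (0.65 ± 0.97), Junb (-0.23 ± 0.23), Jund (0.03 ± 0.31) and Egr1 (-1.09 ± 0.59) did. These 5 of 10 without overlap compare with 60.1% of all genes at low density. The 95% interval of Junb, from -0.75 to 0.29, leaves room for a lower level by up to 0.75 on the log2 scale. Scaling mattered here too, since neutrophil-marker scaling called Jun (1.16) and Atf3 (1.22) higher in H2R-deficient cells, turned Fos to 0.70, Junb to 0.53, Nr4a1 to 0.13 and Nr4a2 to 0.21, and moved the median of all genes from 0.05 to 0.78. Of all genes, 25.2% were called higher and 0.188% lower at low density on that scale. DESeq2 called 3 of the 10 at high density (Jun, Nr4a1 and Nr4a2) and 1 at low density (Fosl2), and limma-voom called 0 at either. Of all genes, DESeq2 called 4.54% at high and 5.84% at low density, and limma-voom 0.0201% at high and 0.0537% at low density.

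**Figure D3:**
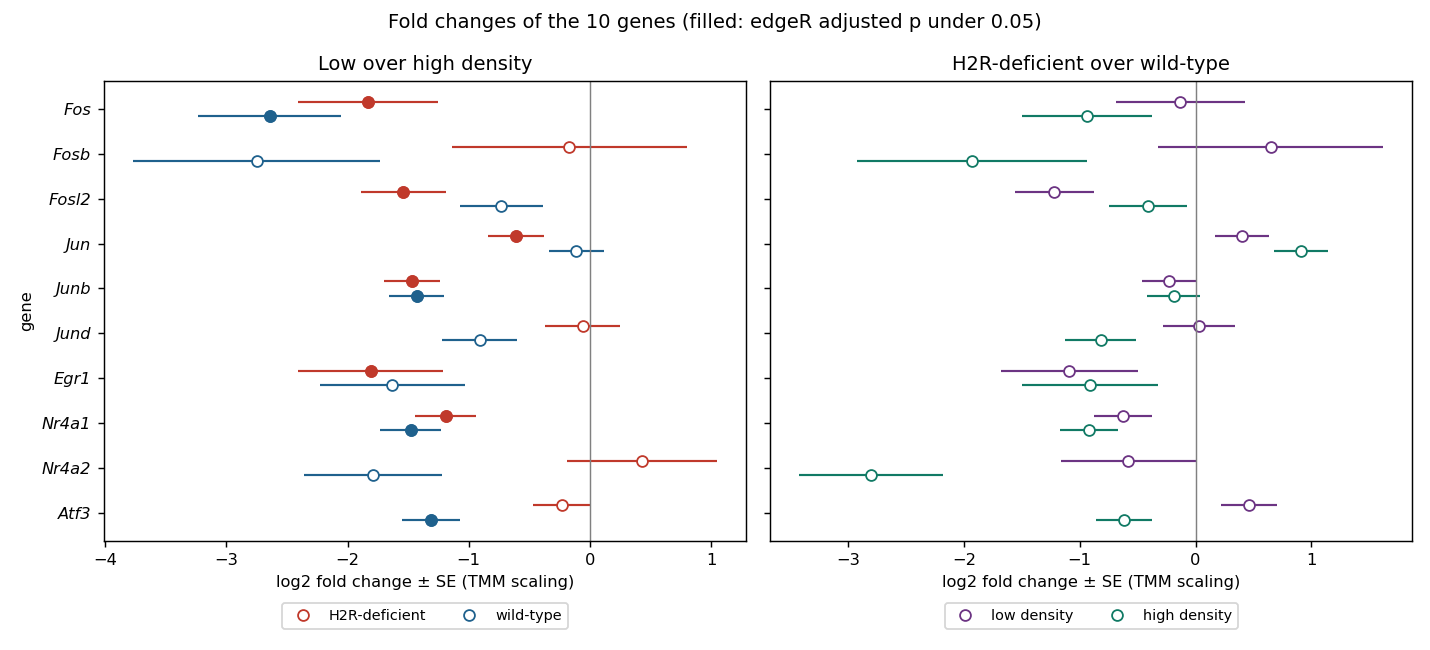
Log2 fold changes with standard errors after TMM scaling for the 10 genes, low over high density in each genotype (left) and H2R-deficient over wild-type at each density (right). Filled points passed edgeR's adjusted p threshold of 0.05. The left panel has 6 filled points for H2R-deficient and 4 for wild-type cells, all below 0 under this scaling, and the right panel has none.

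Whether the density effect differed between genotypes was tested as the H2R-deficient effect minus the wild-type effect. None of the 10 genes was called and neither was any of the 14909 tested (0% called, 3150 at an unadjusted p under 0.05). The lowest p among the 10 belonged to Atf3, whose effect was -0.23 in H2R-deficient and -1.31 in wild-type cells, a difference of 1.08 ± 0.34 (95% interval 0.32 to 1.85, edgeR adjusted p = 0.125). DESeq2 called it (1.12, DESeq2 adjusted p = 0.0465), as did edgeR with total counts only (1.42), neutrophil-marker scaling (1.90) and no low-count filter (1.15), and its adjusted p over all 15 alternatives ranged from 0.00728 to 0.346. Of all genes these settings called 6.35%, 4.26%, 12.6% and 4.31% in that order. The median difference of all genes also moved, from 0.04 after TMM scaling to 0.38 with total counts only and 0.83 with neutrophil-marker scaling. Leaving out single libraries gave 0.68 to 1.41 for Atf3 and no call. Nr4a2 differed by 2.22 ± 0.84 (edgeR adjusted p = 0.182) and by 0.91 without wild-type high-density library 2. For Junb the 2 effects were -1.47 and -1.43, a difference of -0.04 ± 0.32 with an interval of -0.77 to 0.69, and for Nr4a1 the difference was 0.29 ± 0.35 with an interval of -0.49 to 1.07. The density effect of Fos was called in both genotypes, and its difference of 0.82 ± 0.79 was not (95% interval -1.04 to 2.68, edgeR adjusted p = 0.588).

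Compared per transcript length, in RPKM, which divides TMM-scaled CPM by exonic length in kilobases, Junb had the highest level of the 10 genes in all 8 libraries, at 307 to 1185 RPKM. Fosb had rank 9 and Nr4a2 rank 10 in all 8. The order of the group means in between differed by group, and single libraries did not all keep it. Jun had rank 2 in H2R-deficient low-density cells at 116 ± 29.6 RPKM (mean ± SD, n = 2) and rank 8 in wild-type high-density cells at 94.6 ± 15.9 RPKM. In H2R-deficient low-density library 2 Jun had rank 3, behind Jund at rank 2. Fos had rank 8 in both low-density groups (40.4 ± 15.0 RPKM in H2R-deficient and 44.1 ± 12.8 RPKM in wild-type cells), rank 5 in H2R-deficient high-density (143 ± 71.5 RPKM) and rank 4 in wild-type high-density cells (276 ± 186 RPKM). Nr4a1 had rank 2 in both high-density groups, at 183 ± 31.7 RPKM in H2R-deficient and 346 ± 111 RPKM in wild-type cells. In H2R-deficient high-density library 2, however, it had rank 4 at 161 RPKM, below Egr1 (211) and Fosl2 (165). In wild-type high-density cells ranks 3 to 6 were held by Egr1 (283 ± 116), Fos (276 ± 186), Jund (196 ± 86.1) and Fosl2 (184 ± 37.9 RPKM). Their order differed between libraries 2 and 4, and differences between genes were not tested. Egr1 (365 and 201 RPKM) lay above Jund (257 and 135) and Fosl2 (211 and 157) in both libraries. Fos (407 and 144) lay above Egr1 and Fosl2 in library 2 alone, and above Jund in both.

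The genes did not all move together across libraries. Over the 8 libraries, Pearson correlations of log2 TMM-scaled CPM were 0.95 between Fos and Junb, 0.94 between Fos and Nr4a1, 0.96 between Fosl2 and Egr1 and 0.94 between Fosb and Jund, which are descriptions of libraries that share density and genotype groups. Jun had -0.46 to 0.36 with the other 9. Within the H2R-deficient groups library 1 was the higher at both densities for Fos, Fosb, Jun, Junb, Jund and Nr4a1, and library 2 for Fosl2 and Egr1. The gap for Egr1 was 1.90 times at low density and 2.33 times at high density, and for Fos, in the other direction, 1.71 and 2.09 times. Likeness was sought among 8156 genes with at least 5 CPM in a group. Predicted gene names and every gene on the lists used here, the other immediate-early genes among them, were left out and not compared. Of the 8156, Cxcr4, the chemokine receptor that holds neutrophils in bone marrow and marks aged ones, was most like the mean of the 10 genes over the 8 libraries (r = 0.980). It was also the most like Fos (r = 0.989). Next to the mean came Kat2b (0.976), a histone acetyltransferase, Tnfaip2 (0.975), Dck (0.974), which phosphorylates deoxycytidine, and Arid4a (0.973).

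Relatives of these genes were counted from lists of the same families. For comparison, after TMM scaling 23.9% of all genes were called lower and 30.0% higher at low density in H2R-deficient cells. In wild-type cells 4.15% of all genes were called lower and 8.51% higher. Of 5 tested other EGR and NR4A genes and NAB corepressors, which bind EGR proteins, 4 fell at low density after TMM scaling in H2R-deficient cells and 2 in wild-type cells, with 0 higher in either and medians of -1.43 in H2R-deficient and -1.39 in wild-type cells. In H2R-deficient cells these were Nab1 (-1.47 ± 0.22), Nab2 (-1.47 ± 0.30), Egr2 (-1.43 ± 0.42) and Egr3 (-1.25 ± 0.39). In wild-type cells they were Nr4a3 (-1.60 ± 0.38) and Egr2 (-1.60 ± 0.42). With neutrophil-marker scaling 1 was higher (Nr4a3, 0.77) and 0 lower in H2R-deficient cells, where Nab1, Nab2, Egr2 and Egr3 turned to 0.02, 0.01, 0.05 and 0.25, and the same 2 were lower in wild-type cells. On that scale 68.7% of all genes were higher and 0.295% lower in H2R-deficient cells, and 32.5% higher and 0.590% lower in wild-type cells. Of 15 other AP-1, MAF and BATF genes, 6 fell and 3 rose after TMM scaling in H2R-deficient and 2 fell and 1 rose in wild-type cells (medians -0.34 in H2R-deficient and -0.14 in wild-type cells). With total counts only, 7 were higher and 0 lower in H2R-deficient cells, and 5 higher and 1 lower in wild-type cells. Total counts called 51.6% of all genes higher and 2.60% lower in H2R-deficient cells, and 32.3% higher and 0.832% lower in wild-type cells. The AP-1 repressor gene Jdp2 fell in both after TMM scaling (-1.13 ± 0.17 in H2R-deficient, -1.17 ± 0.17 in wild-type cells), and with neutrophil-marker scaling was 0.38 in H2R-deficient and -0.46 in wild-type cells, called in neither. Batf3, a factor of dendritic cells, rose in both under all 3 scalings (3.26 ± 0.45 in H2R-deficient, 1.94 ± 0.43 in wild-type cells after TMM scaling), beside the dendritic cell marker sums given above. Maf, a factor of macrophages, rose in H2R-deficient cells under all 3 scalings (1.26 ± 0.18 after TMM scaling). Of 10 macrophage markers, 5 rose and 2 fell in H2R-deficient cells after TMM scaling and 0 were called in wild-type cells. Their sums were 267 to 314 CPM in H2R-deficient low-density, against 330.5 to 507 in H2R-deficient high-density, and 399.8 to 437 in wild-type low-density, against 588 to 692 in wild-type high-density libraries, and their part in the value of Maf was not tested.

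**Figure D4:**
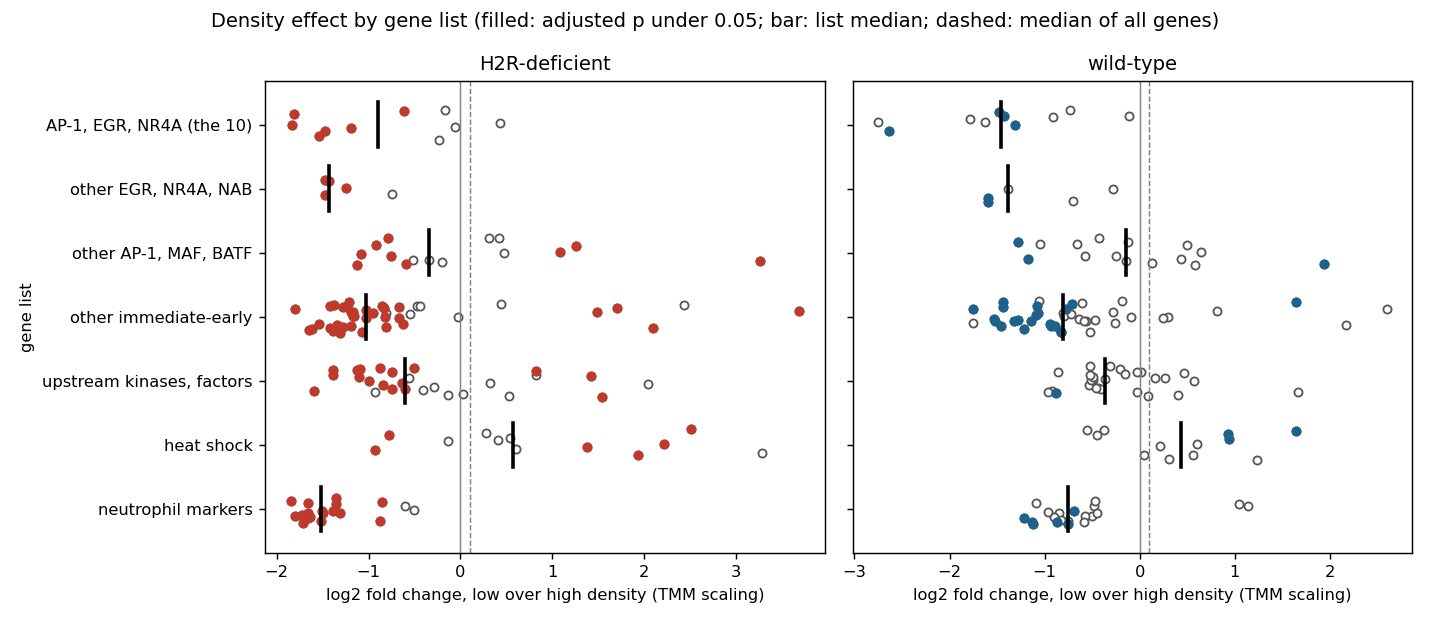
Log2 fold change of low over high density after TMM scaling for each gene of 7 lists, in H2R-deficient (left) and wild-type cells (right). Points are genes, filled where edgeR's adjusted p was under 0.05, bars are list medians and the dashed line is the median of all genes (0.10). The 10 genes have medians of -0.90 in H2R-deficient and -1.46 in wild-type cells, other immediate-early genes -1.03 and -0.81, neutrophil markers -1.52 and -0.75 and heat shock genes 0.57 and 0.44 in the same panels; with neutrophil-marker scaling the median of the 10 genes is 0.64 in H2R-deficient and -0.75 in wild-type cells.

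Of 41 immediate-early genes tested outside these families, 30 were called lower and 4 higher at low density after TMM scaling in H2R-deficient cells (median -1.03), and 20 were called lower and 1 higher in wild-type cells (median -0.81). The shares of all genes were 23.9% lower and 30.0% higher in H2R-deficient cells, and 4.15% lower and 8.51% higher in wild-type cells. With neutrophil-marker scaling the H2R-deficient count was 0 lower and 15 higher and the wild-type count 7 lower and 5 higher, with medians of 0.47 in H2R-deficient and -0.09 in wild-type cells, beside the shares of all genes called on that scale (68.7% higher and 0.295% lower in H2R-deficient, 32.5% higher and 0.590% lower in wild-type cells). After TMM scaling Dusp1, a MAP kinase phosphatase, fell by 1.34 ± 0.20 in H2R-deficient and by 1.52 ± 0.20 in wild-type cells (log2 scale). Ier3, an early response gene, was at -1.62 ± 0.22 in H2R-deficient and -1.44 ± 0.22 in wild-type cells. Gadd45a, a growth arrest gene, was at -1.28 ± 0.19 in H2R-deficient and -1.46 ± 0.19 in wild-type cells, and Sgk1, a serum-induced kinase, at -1.38 ± 0.20 in H2R-deficient and -1.08 ± 0.20 in wild-type cells, all called lower. With neutrophil-marker scaling the H2R-deficient values of Dusp1, Gadd45a and Sgk1 turned to 0.19, 0.23 and 0.12 and that of Ier3 was -0.10, none called. Myc went the other way under all 3 scalings and, after TMM scaling, rose by 2.10 ± 0.25 in H2R-deficient and 1.64 ± 0.25 in wild-type cells, beside higher summed markers of dividing cells (154 to 219.7 CPM in H2R-deficient low-density, against 73.8 to 77.0 in H2R-deficient high-density, and 123 to 157 in wild-type low-density, against 67.2 to 95.2 CPM in wild-type high-density libraries). Neutrophil markers themselves fell after TMM scaling in 18 of 20 cases in H2R-deficient and in 6 of 20 in wild-type cells (medians -1.52 in H2R-deficient and -0.75 in wild-type cells).

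Kinases and factors upstream of these genes were called lower after TMM scaling in 14 and higher in 3 of 27 cases in H2R-deficient cells, and lower in 1 and higher in 0 in wild-type cells (medians -0.60 in H2R-deficient and -0.37 in wild-type cells). All genes had 23.9% called lower and 30.0% higher in H2R-deficient cells, and 4.15% lower and 8.51% higher in wild-type cells. With neutrophil-marker scaling 18 were higher and 0 lower in H2R-deficient cells, against 68.7% and 0.295% of all genes, and 2 higher and 0 lower in wild-type cells, against 32.5% and 0.590%. After TMM scaling Atf1, which binds the same sites as CREB, fell in H2R-deficient cells (-1.09 ± 0.16), as did Mapk3, which encodes ERK1 (-1.13 ± 0.18), and Map2k4, a kinase of the JNK pathway (-1.59 ± 0.26), while Map2k7, another kinase of that pathway, rose (1.54 ± 0.27). With neutrophil-marker scaling Atf1 turned to 0.42 and Mapk3 to 0.38, neither called, Map2k4 was -0.12 and not called, and Map2k7 was called higher (3.03). Mapkapk2, the kinase downstream of p38, fell in both after TMM scaling (-1.10 ± 0.18 in H2R-deficient, -0.88 ± 0.18 in wild-type cells), and with neutrophil-marker scaling was 0.42 in H2R-deficient and -0.17 in wild-type cells, called in neither. Heat shock genes, which rise with immediate-early genes in many dissociated tissues, were counted as well. Of 12, 4 rose and 2 fell at low density after TMM scaling in H2R-deficient cells and 3 rose and 0 fell in wild-type cells (medians 0.57 in H2R-deficient and 0.44 in wild-type cells). With total counts only, 9 were higher and 0 lower in H2R-deficient cells, and 5 higher and 0 lower in wild-type cells. Total counts called 51.6% of all genes higher and 2.60% lower in H2R-deficient cells, and 32.3% higher and 0.832% lower in wild-type cells. After TMM scaling the mitochondrial chaperonin gene Hspd1 rose by 1.93 ± 0.19 in H2R-deficient and 0.93 ± 0.19 in wild-type cells, and Hsph1, a cytosolic chaperone gene, by 2.51 ± 0.28 in H2R-deficient and 1.64 ± 0.27 in wild-type cells, while Dnajb1 (-0.78 ± 0.16) and Dnaja1 (-0.93 ± 0.21), co-chaperones of HSP70, fell in H2R-deficient cells. Hspd1 and Hsph1 were called higher under the other scalings too, while in H2R-deficient cells Dnajb1 turned to 0.12 with total counts only (not called) and 0.73 with neutrophil-marker scaling (called higher), and Dnaja1 was -0.02 and 0.59, called under neither.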

How the data were processed

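The deposited files hold raw counts of reads per gene in featureCounts layout, without normalization, per the file headers. Tools named in the submitters' processing notes are featureCounts from Subread 1.5.2, STAR 2.5.2b, Trimmomatic 0.36 and bcl2fastq 2.17.1.14, with the build GRCm38. Strand setting, handling of reads with several matches and annotation release are not given in the sources, so reads of a gene and of an overlapping gene on the other strand cannot be told apart.

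Identifiers were paired with symbols from GENCODE M21 (48970 of 49315 matched). After edgeR's filterByExpr by group, 14909 genes were scaled by TMM and fitted with 1 mean per group over all 8 libraries in a robust quasi-likelihood model (edgeR 4.0.16, R 4.3.3), which left 4 residual degrees of freedom at a biological coefficient of variation of 0.236. P-values were adjusted by Benjamini-Hochberg over all genes tested. Standard errors and 95% intervals come from the model, since an exact test of 2 against 2 libraries cannot pass 0.05. Replicates differed beyond sampling noise (chi-square per degree of freedom 22.7 to 35.1). The fits were tested on simulated data. Alternatives were total counts only, DESeq2 size factors, neutrophil-marker scaling, no low-count filter, DESeq2 1.42.0, limma-voom (limma 3.58.1), only the groups compared, a library-number block, and each library left out.

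The 10 genes and all lists were chosen with earlier results of these data known. All 10 are given, and of each other list up to 6 called genes with the lowest adjusted p, some of them by count only; 1 list gene is not reported here. Likeness was the Pearson correlation over the 8 libraries of log2 CPM (prior count 2). Genes on any list used here and predicted gene names were not candidates for it. Promoter sequences are RefSeq's, and that of Egr1 was not used here.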

Additional observations from a re-analysis of the deposited data

How the results depend on the processing

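The 16 settings for the density comparisons (15 for the genotype comparisons and the difference of effects) moved the number of the 10 genes called as follows, in edgeR unless another tool is named. Leaving out 1 library gave 3 to 6 calls for density in H2R-deficient cells, 0 to 7 in wild-type cells, 0 to 1 for genotype at high density, 0 at low density and 0 for the difference of effects. With total counts only, density in H2R-deficient cells had 3 calls (2 higher, 1 lower) and the difference of effects 1, against 54.2% and 4.26% of all genes. Neutrophil-marker scaling gave 2 calls for density in wild-type cells, 1 for genotype at high and 2 at low density, and 3 for the difference. The shares of all genes called were 33.1%, 0.845%, 25.3% and 12.6% in that order. With no low-count filter there were 3 for density in H2R-deficient cells, 4 and 1 for genotype at high and low density and 2 for the difference. Of all genes, 29.7%, 3.90%, 4.84% and 4.31% were called in that order. In wild-type density the 6 calls with no filter were lower and lacked Fos (-2.60) while adding Fosl2 (-0.68), Jund (-0.87) and Nr4a2 (-1.75), and DESeq2 also gave 6. DESeq2 gave 3 and 1 for genotype at high and low density and 1 for the difference, against 4.54%, 5.84% and 6.35% of all genes.

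Signs turned in these cases. With total counts only, density values became 0.30 for Jun, 0.74 for Fosb, 0.85 for Jund and 0.68 for Atf3 in H2R-deficient cells and 0.47 for Jun in wild-type cells. Genotype values at low density became 0.18 for Fos and 0.05 for Junb, and differences of effects 0.30 for Junb and 0.16 for Egr1. With neutrophil-marker scaling, density values became 1.38 for Fosb, 0.94 for Jun, 0.05 for Junb, 1.47 for Jund, 0.34 for Nr4a1 and 1.31 for Atf3 in H2R-deficient cells and 0.63 for Jun in wild-type cells. Genotype values at low density became 0.70 for Fos, 0.53 for Junb, 0.13 for Nr4a1 and 0.21 for Nr4a2, and differences 0.31 for Jun, 0.78 for Junb and 0.65 for Egr1. Jund's density value in H2R-deficient cells was 0.04 with no low-count filter and 0.06 with only the groups compared, and Junb's difference was 0.02 with no filter. Ranges that cross 0 when 1 library was left out were -0.56 to 0.31 for Fosb and -0.23 to 0.13 for Jund (density, H2R-deficient), -0.27 to 0.08 for Jun (density, wild-type), -2.78 to 0.42 for Fosb and -0.44 to 0.10 for Junb (genotype, high density), -0.56 to 0.21 for Fos and -0.20 to 0.29 for Jund (genotype, low density), and -0.12 to 1.45 for Fos, -0.33 to 0.21 for Junb, -0.71 to 0.63 for Egr1 and -0.08 to 0.59 for Nr4a1 (difference). Beyond the scalings, which shift all genes by construction, the cause was not tested.

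Over all genes the main counts of 8044 (density, H2R-deficient), 1888 (density, wild-type), 31 and 0 (genotype, high and low density) and 0 (difference) moved by over 1.5 times in these cases. In wild-type density they were 4946 with total counts only (4822 higher, 124 lower), 4931 with neutrophil-marker scaling, 3361 with no low-count filter, 608 with only the groups compared and 123 to 1724 with 1 library left out. Genotype at high density gave 73 with total counts only, 126 with neutrophil-marker scaling, 1095 with no filter, 677 by DESeq2, 3 by limma-voom, 0 with only the groups compared and 0 to 40 with 1 library left out. Genotype at low density gave 3779, 1360 and 870 with neutrophil-marker scaling, no filter and DESeq2, 8 by limma-voom and 0 to 121 with 1 library left out. The difference gave 635 with total counts only, 1873 with neutrophil-marker scaling, 1210 with no filter, 946 by DESeq2, 28 with the block and 0 to 3 with 1 library left out. Total counts turned the H2R-deficient split of 4478 higher and 3566 lower to 7690 and 387.

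Libraries of the 2 densities share numbers within a genotype, and same-numbered libraries deviated together across genes (r = 0.33 in H2R-deficient and 0.15 in wild-type cells), but the labels do not say that a number marks an animal, and only 2 pairs exist per genotype. With the number as a replicate block, 6 of the 10 genes were called lower in H2R-deficient cells, 5 in wild-type cells, where Egr1 was added (-1.70), and 0 for the difference, against 6, 4 and 0 without the block. Of all genes the block called 24.8% lower in H2R-deficient and 6.53% in wild-type cells (56.7% and 17.6% either way), and 0.188% for the difference. For the genotype comparisons no paired analysis was possible because the groups share only the number 2. Depth bears most on Nr4a2, with 17 to 214 counts per library, the fewest of the 10 genes.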
